A study of Mus musculus with 10 samples.

Results

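The genes described here are 7 mouse genes tied by earlier work to a long-lived state of neutrophils in tumours: Car4, Atp6v0d2, Siglecf, Tnfrsf23, Hilpda, Spp1 and Cstdc4. They were chosen by symbol from a table of 55385 mouse genes. Car4 and Atp6v0d2 were put forward because of their difference between the treated grafts in these same libraries, so every comparison that holds a treated library is given for the 7 genes as a description, with no test. Only the comparison of the untreated (naive) grafts holds no treated library, and the 7 genes were tested there alone. Its fit still takes the estimate of the spread and the scaling from all 10 libraries.

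RNA was sequenced in bulk from Tomato+ neutrophils of grafted squamous cell carcinomas (SCC), with 10 libraries in 4 groups. Host mice were of the CatchupIVM-red line, where Cre and a red Tomato reporter are expressed from the neutrophil gene Ly6g, so the Tomato signal ties the samples to cells that have used that gene. The study asked whether Sox2, a stem cell transcription factor, lets tumour cells change the state of neutrophils and their response to interferons. The groups were control naive (parental Sox2low graft, untreated, n = 3), control treated (the same graft, given anti-PDL1 with a CD40 agonist, n = 2), Sox2Hi naive (Sox2Hi SCC graft, untreated, n = 3) and Sox2Hi treated (the Sox2Hi graft with the same agents, n = 2). The sample descriptions carry C57 in all 4 groups, with GFP for the control and Sox2 for the Sox2Hi graft, and do not say whether C57 is the strain of the hosts, the graft or both. The labels give no age, dose, time, clone number or number of mice per library, so p-values measure only the spread between these libraries. All 4 groups came from tumours, and no neutrophils from blood or bone marrow were used here, so the label of the gene set as tumour-conditioned could not be checked against them.

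Neutrophils that enter a tumour can live longer than those in blood and change their gene program. In mouse tumours such cells have been described with the surface lectin Siglec-F, with the decoy receptor encoded by Tnfrsf23 (dcTRAIL-R1), with genes induced by low oxygen, and with genes for lysosomes and acid handling. Car4 encodes a carbonic anhydrase anchored to the outer cell membrane that interconverts CO2 and bicarbonate. Atp6v0d2 encodes the d2 subunit of the V-ATPase, the proton pump of lysosomes, and is best known from osteoclasts and macrophages. Hilpda encodes a small lipid droplet protein, induced by hypoxia, that inhibits the triglyceride lipase Pnpla2. Spp1 encodes osteopontin, a secreted protein bound by CD44 and by integrins. Cstdc4 encodes an inhibitor of cysteine proteases in the stefin A cluster.

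The genes lie on 6 chromosomes (GRCm38, GENCODE M21). Car4 (ENSMUSG00000000805) spans chr11:84957786-84966044 on the plus strand and Atp6v0d2 (ENSMUSG00000028238) chr4:19876841-19922605 on the minus strand. Siglecf (ENSMUSG00000039013) spans chr7:43351341-43359531 on the plus strand, and Tnfrsf23 (ENSMUSG00000037613) lies on the same chromosome at chr7:143665809-143685872 on the minus strand. Hilpda (ENSMUSG00000043421) spans chr6:29272488-29275446, Spp1 (ENSMUSG00000029304) chr5:104435118-104441050 and Cstdc4 (ENSMUSG00000079597) chr16:36184212-36188111, all on the plus strand. Cstdc4 is listed as Gm5483 in GENCODE M21 and was matched through a RefSeq synonym. All 7 are annotated as protein coding.

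Promoters were read for 6 of the 7 genes from RefSeq (GRCm38.p6), and 4 are shown. They belong to some of the genes whose levels moved together (Car4, Tnfrsf23, Cstdc4) and to the gene that moved otherwise (Siglecf). Each runs from 250 bases before to 30 after the annotated start, 5′ to 3′ on the strand of the gene. Capitals mark matches on either strand to ACGTG or GCGTG (cores of the hypoxia response element), TGACTCA (AP-1), GAGGAA (the core bound by PU.1, a myeloid factor), the core of the interferon-stimulated response element, or TTNNGCAA (C/EBP).
Car4, chr11:84957504-84957783, plus strand: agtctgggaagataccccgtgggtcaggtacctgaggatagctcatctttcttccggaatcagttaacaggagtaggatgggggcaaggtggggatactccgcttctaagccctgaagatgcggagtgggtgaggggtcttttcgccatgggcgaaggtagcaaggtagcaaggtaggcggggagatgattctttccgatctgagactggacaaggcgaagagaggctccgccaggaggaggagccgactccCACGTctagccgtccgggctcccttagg
Tnfrsf23, chr7:143685846-143686125, minus strand: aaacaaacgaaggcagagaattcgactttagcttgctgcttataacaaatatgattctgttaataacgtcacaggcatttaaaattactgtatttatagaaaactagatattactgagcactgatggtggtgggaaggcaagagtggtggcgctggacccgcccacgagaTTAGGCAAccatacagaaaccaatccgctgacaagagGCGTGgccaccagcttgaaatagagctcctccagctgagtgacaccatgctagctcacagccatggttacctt
Cstdc4, chr16:36183962-36184241, plus strand: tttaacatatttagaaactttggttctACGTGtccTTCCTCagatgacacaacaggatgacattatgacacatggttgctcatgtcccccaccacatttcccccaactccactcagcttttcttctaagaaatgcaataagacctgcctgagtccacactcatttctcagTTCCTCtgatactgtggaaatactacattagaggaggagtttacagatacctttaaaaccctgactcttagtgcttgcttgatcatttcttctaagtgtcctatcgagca
Siglecf, chr7:43351091-43351370, plus strand: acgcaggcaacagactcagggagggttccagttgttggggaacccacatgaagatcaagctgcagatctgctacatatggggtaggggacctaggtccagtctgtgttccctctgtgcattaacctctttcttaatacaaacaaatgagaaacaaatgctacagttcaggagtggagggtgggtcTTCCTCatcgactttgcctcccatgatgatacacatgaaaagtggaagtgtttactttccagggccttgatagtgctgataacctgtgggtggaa

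Hilpda has a pair of annotated starts, and the window of the second held 3 hypoxia cores, more than any other window read for these genes. They are shown as stretches of 30 bases on the plus strand, with the core in capitals.
Hilpda, chr6:29272503-29272532: caaccgcgagccGCGTGctttccgtgactc
Hilpda, chr6:29272571-29272600: gatggccagcggACGTGccccagggcgagc
Hilpda, chr6:29272606-29272635: caggttcggtacGCGTGcgcagtctccgag
ACGTG occurs in 19.6% and GCGTG in 32.4% of the 32851 promoter windows of 300 bases in the RefSeq table, GAGGAA in 28.3%, the interferon-stimulated core in 3.44%, TTNNGCAA in 10.8% and TGACTCA in 5.2%. ACGTG lies within the hypoxia element and also within other motifs. Among the windows not shown, the first of Spp1 held the only match to the interferon-stimulated core in these genes, and a match to GAGGAA. A match is a description of the letters and not a bound site.

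Total counts ran from 13815734 to 22986193 per library. Levels are given in CPM, counts scaled to library size, after TMM scaling over all 29648 genes kept by the filter on low counts, called the all-gene scaling. The TMM factors of the control treated libraries were 0.630 and 0.589, against 0.930 to 1.40 in the others, so fold changes against this group depend on the scaling. The same fit on 11274 genes averaging 5 CPM or more, called the expressed-gene scaling, is therefore given beside it. Reads over olfactory and vomeronasal receptor genes, taken as silent, put the expected background at 1.58% to 1.74% of counts in control treated and at 3.63% to 8.39% in the other groups.

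The markers of the sorted cell type moved with the groups. The summed level of 8 neutrophil markers was 10459.8 to 14168 CPM in control naive and 43202 to 44443 CPM in control treated. In the Sox2Hi graft it was 11591 to 15522 CPM when naive and 16972 to 17161 CPM when treated. None of the 8 was at 0 in any library. Ly6g was the lowest of them, at 1.57 to 2.60 CPM in control naive and 14.2 to 20.6 CPM in control treated, with 1.92 to 3.53 CPM in naive and 5.13 to 9.06 CPM in treated Sox2Hi tumours. Il1r2 made up most of the sum in the naive groups (8173 to 11579 CPM), and S100a8 reached 9361 to 11868 CPM in control treated. In bulk RNA, fewer neutrophils among the cells and less of a transcript per neutrophil cannot be told apart. A scaling by the summed counts of these 8 markers, chosen after the data were seen, is given as the neutrophil marker scaling, and whether the markers account for any change of the 7 genes was not tested.

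**Figure D1:**
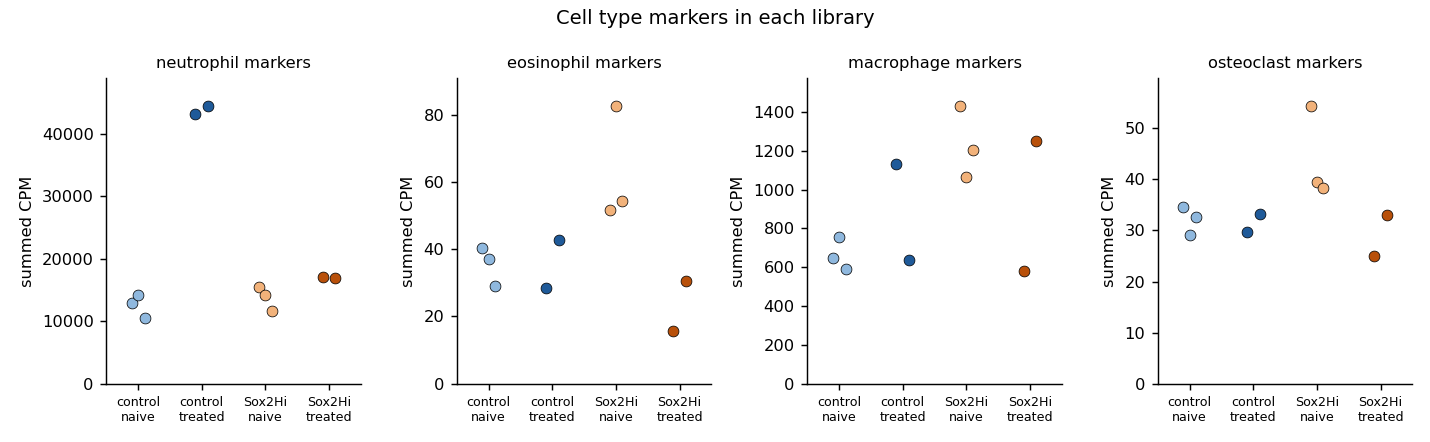
Summed CPM (linear axis from 0) of the neutrophil, eosinophil, macrophage and osteoclast marker lists in each library, by group, with 1 point per library. The neutrophil markers of both control treated libraries lie at 43202 CPM or above and those of the 8 other libraries at 17161 CPM or below, while the eosinophil markers are highest in the 3 Sox2Hi naive libraries.

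Of the 7 genes, 6 had their highest levels in both control treated libraries: Car4, Atp6v0d2, Tnfrsf23, Hilpda, Spp1 and Cstdc4. The same 6 did so with the expressed-gene scaling. Siglecf did not, and was highest in the 3 Sox2Hi naive libraries with the all-gene scaling and relative to the neutrophil markers, but not with the expressed-gene scaling. With library totals alone and no TMM factors, control treated overlapped other groups for Tnfrsf23 and Spp1. Tnfrsf23 then read 71.7 CPM in control treated replicate 2 and 83.6 CPM in Sox2Hi naive replicate 1. Spp1 read 2965 CPM in control treated replicate 1 and 3392 CPM in control naive replicate 1. Markers of other cell types moved with treatment as well. In control tumours 6 lymphocyte markers summed to 21.8 to 31.6 CPM when naive and 98.9 to 396 CPM when treated (Nkg7 11.8 to 17.0 and 70.8 to 289.8 CPM), and in Sox2Hi tumours to 21.1 to 116 and 95.4 to 161 CPM. The 6 fibroblast markers summed to 216 to 726 CPM in naive and 106 to 113 CPM in treated control tumours, and to 507 to 757 and 91.4 to 292 CPM in the Sox2Hi graft. No gene of either list was at 0 in any library, and their part in the levels of the 7 genes was not tested. Among the 6, Car4 and Atp6v0d2 stood near their naive level in Sox2Hi treated tumours, as did Tnfrsf23. Hilpda and Cstdc4 lay between the naive groups and control treated there, and Spp1 overlapped the naive levels.

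**Figure D2:**
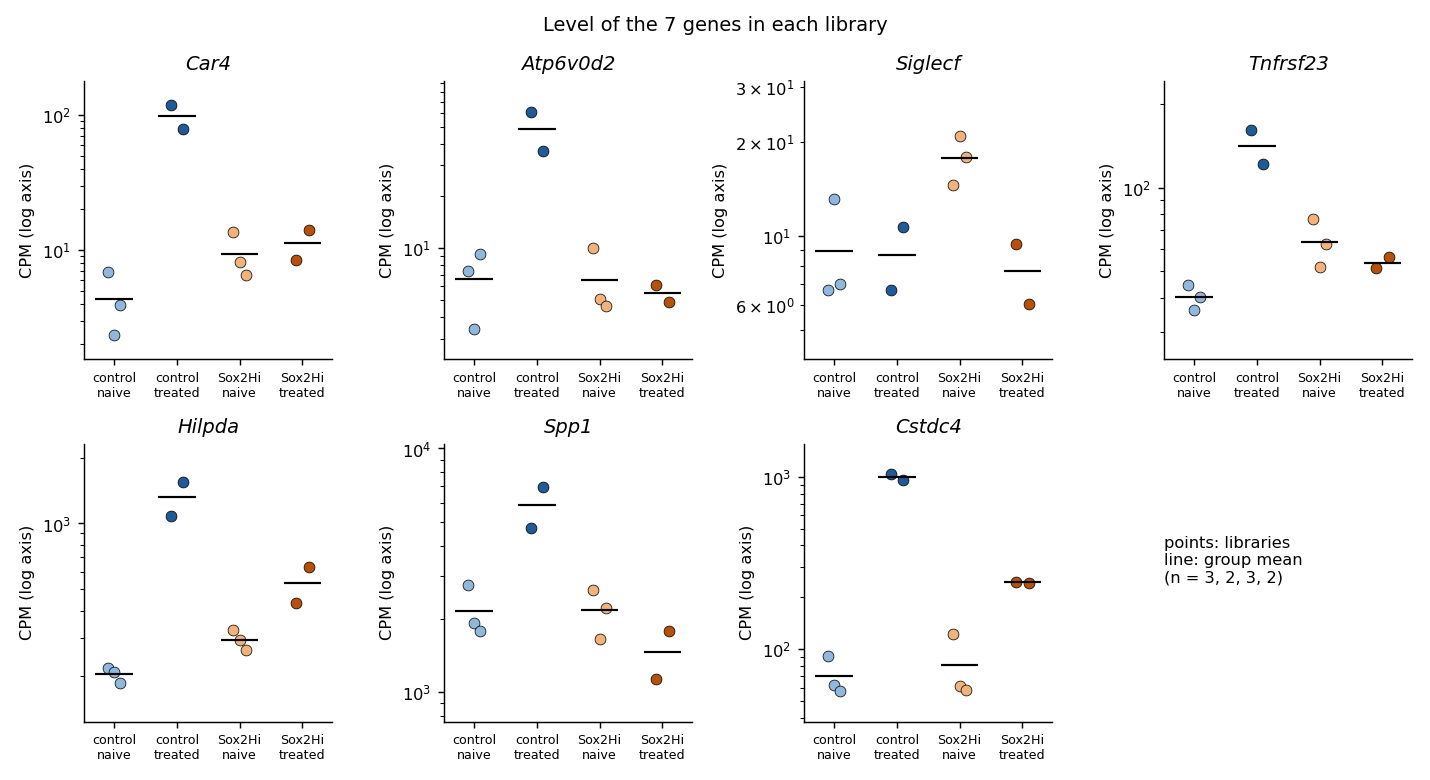
CPM of each gene (log axis, all-gene scaling) in each library of the 4 groups, with 1 point per library and a line at the group mean (n = 3, 2, 3 and 2). In 6 of the 7 panels both control treated points lie above all 8 others, and in the Siglecf panel the 3 Sox2Hi naive points lie above the 7 others, which does not hold with the expressed-gene scaling.

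Compared per kb of exon, Spp1 was the most abundant of the 7 in each group and Hilpda the next, with Cstdc4 after it and then Tnfrsf23. In control treated the means were 3544 ± 971 CPM per kb for Spp1, 1192 ± 294 for Hilpda and 536 ± 30.8 for Cstdc4 (SD, n = 2). Car4 reached 50.4 ± 14.6 there, Tnfrsf23 35.8 ± 7.11, Atp6v0d2 18.0 ± 6.54 and Siglecf 3.11 ± 0.998 CPM per kb. Car4 thus stood above Tnfrsf23 in that group alone, by less than the sum of their SDs. In control naive Car4 (2.22 ± 1.16), Atp6v0d2 (2.45 ± 1.08) and Siglecf (3.20 ± 1.29) differed by less than their SDs (n = 3).

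Car4, the membrane-anchored carbonic anhydrase, read 6.84, 2.34 and 3.92 CPM in control naive and 119 and 78.8 CPM in control treated. It read 13.6, 8.14 and 6.50 CPM in Sox2Hi naive and 8.39 and 14.1 CPM in Sox2Hi treated. The lower control treated library lay far above every library of the other groups, and the groups of the Sox2Hi graft overlapped. The log2 fold change of treatment in control tumours was 4.50 (SE 0.44; 3.97 with the expressed-gene scaling), and in Sox2Hi tumours it was 0.25 (SE 0.42; 0.51). Between the treated grafts it was -3.14 (SE 0.48; -2.70), which is 8.80-fold lower in Sox2Hi. With the neutrophil marker scaling the last value was -1.78 (SE 0.48), or 3.43-fold lower. Expected background made up 16.9% of the Car4 reads in control naive, 38.7% in its replicate 2, and 0.419% in control treated.

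Atp6v0d2, the d2 subunit of the proton pump, read 7.34, 3.43 and 9.20 CPM in control naive and 61.4 and 36.3 CPM in control treated. It read 9.96, 5.06 and 4.65 CPM in Sox2Hi naive and 6.10 and 4.89 CPM in Sox2Hi treated. The naive grafts and the treated Sox2Hi tumours thus shared 1 range, and control treated lay above it. The treatment log2 fold change was 2.87 (SE 0.41; 2.37 with the expressed-gene scaling) in control tumours and -0.26 (SE 0.43; 0.00) in Sox2Hi tumours. Between the treated grafts it was -3.15 (SE 0.48; -2.72), an 8.87-fold difference, and -1.80 (SE 0.52) with the neutrophil marker scaling. Expected background made up 15.3% of the Atp6v0d2 reads in control naive, 36.5% in its replicate 2, and 1.18% in control treated. Atp6v0d2 is also a gene of osteoclasts, whose 6 markers summed to 29.1 to 34.6 CPM in control naive and 29.6 to 33.2 CPM in control treated. Single markers differed from the sum, with Acp5 at 10 to 13.3 and 15.2 to 19.6 CPM and Calcr at 1.42 to 2.24 and 2.27 to 3.55 CPM in the same groups. Ocstamp (4.80 to 5.98 and 2.59 to 3.19 CPM) and Oscar (0.728 to 0.949 and 0.296 to 0.671 CPM) went the other way with no overlap, and Ctsk and Dcstamp overlapped. Their part in the Atp6v0d2 levels was not tested.

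Siglecf, the sialic acid-binding lectin, followed another order. It read 6.69, 13.1 and 7.0 CPM in control naive, 6.71 and 10.7 CPM in control treated, 14.6, 20.9 and 17.9 CPM in Sox2Hi naive, and 9.40 and 6.04 CPM in Sox2Hi treated. The 2 control groups overlapped, as did the treated grafts, and Sox2Hi naive lay above the rest. With the expressed-gene scaling the naive grafts overlapped, since control naive replicate 2 read 17.6 CPM against 14.2, 19.9 and 16.2 CPM in Sox2Hi naive. The treatment log2 fold change was -0.03 (SE 0.33) in control tumours and -1.20 (SE 0.34) in Sox2Hi tumours, and with the expressed-gene scaling -0.63 and -0.93. The difference of the treated grafts was -0.17 (SE 0.37), 0.29 with the expressed-gene scaling and 1.19 (SE 0.39) with the neutrophil marker scaling, so no direction is given. Siglec-F is also a marker of eosinophils and alveolar macrophages. The 8 eosinophil markers summed to 29.0 to 40.2 CPM in naive and 28.4 to 42.6 CPM in treated control tumours, and to 51.7 to 82.5 CPM in naive and 15.7 to 30.5 CPM in treated Sox2Hi tumours. Their part in the Siglecf levels was not tested.

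Among those eosinophil markers, Ccr3 (29.6 to 53.2 CPM) and Prg2 (9.40 to 13.6 CPM) led in Sox2Hi naive, with Ccr3 at 5.26 to 10.4 CPM and Prg2 at 1.01 to 1.09 CPM in Sox2Hi treated. Prg2 overlapped control naive (2.30 to 9.69 CPM). Ear6 went the other way, at 0.560 to 1.11 CPM in Sox2Hi naive and 2.74 to 3.02 CPM in control treated. Ear2 stood at 1.77 to 2.09 CPM in Sox2Hi naive and reached 7.13 CPM in Sox2Hi treated. Il5ra and Prg3 overlapped between Sox2Hi naive and each other group. The defining granule gene Epx stayed at 0.740 to 2.22 CPM over all 10 libraries, and Ear1 had no reads in at least 1 library of each group but Sox2Hi treated. Of the alveolar macrophage markers, Marco (0.604 to 1.96 CPM), Fabp4 (2.56 to 8.70 CPM) and Pparg (1.57 to 4.35 CPM) were low in every library. Chil3, also a neutrophil gene, held nearly all of that list's sum in control treated (340.4 to 377 CPM).

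Tnfrsf23, the decoy receptor for the death ligand TRAIL, read 44.5, 36.0 and 40.2 CPM in control naive, 162 and 122 CPM in control treated, 77.2, 51.6 and 62.4 CPM in Sox2Hi naive, and 51.3 and 55.9 CPM in Sox2Hi treated. With the all-gene scaling control treated lay above all others and control naive below all others. The naive grafts overlapped with the expressed-gene scaling, at 44.7 to 53.9 CPM in control and 48.9 to 75.1 CPM in Sox2Hi. The treatment log2 fold change was 1.82 (SE 0.20) in control tumours and -0.25 (SE 0.21) in Sox2Hi tumours. The expressed-gene scaling gave 1.28 and 0.02, so no direction is given for Sox2Hi tumours. Sox2Hi treated less control treated gave -1.40 (SE 0.23; -0.96 with the expressed-gene scaling). The neutrophil marker scaling gave -0.05 (SE 0.30) for that comparison and -0.01 (SE 0.27) for treatment in control tumours. Of the 31-base words in its transcripts, 28.5% occur in other genes, and 26.6% in the neighbouring Tnfrsf22, so reads of the pair may be split between them.

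Hilpda, the hypoxia-inducible lipid droplet protein, read 218, 210.2 and 186 CPM in control naive and 1085 and 1544 CPM in control treated. In the Sox2Hi graft it read 325, 292 and 265 CPM when naive and 434 and 635 CPM when treated. The 4 groups did not overlap, with control naive lowest, then Sox2Hi naive, Sox2Hi treated and control treated. The naive grafts overlapped with the expressed-gene scaling, at 207 to 283 CPM in control and 239 to 317 CPM in Sox2Hi. The treatment log2 fold change was 2.68 (SE 0.21; 2.11 with the expressed-gene scaling) in control tumours and 0.86 (SE 0.21; 1.13) in Sox2Hi tumours. The difference of the treated grafts was -1.30 (SE 0.24; -0.85), but 0.07 (SE 0.26) with the neutrophil marker scaling. Relative to the neutrophil markers, Hilpda thus differed between the treated grafts by less than its SE.

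Spp1, osteopontin, was abundant in every library. It read 2761, 1919.9 and 1781 CPM in control naive, 4709 and 6973 CPM in control treated, 2618, 1656 and 2225 CPM in Sox2Hi naive, and 1136 and 1785 CPM in Sox2Hi treated. With the all-gene scaling control treated lay above all others, and the other 3 groups overlapped. The treatment log2 fold change was 1.44 (SE 0.28; 0.87 with the expressed-gene scaling) in control tumours and -0.57 (SE 0.29; -0.30) in Sox2Hi tumours. Sox2Hi treated less control treated gave -2.0 (SE 0.32; -1.55). The neutrophil marker scaling gave -0.63 (SE 0.32) there and turned the treatment value in control tumours to -0.38 (SE 0.30). Spp1 is also expressed by macrophages and epithelial tumour cells. The 8 macrophage markers summed to 592 to 755 CPM in naive and 637 to 1129.7 CPM in treated control tumours, and to 1066 to 1429 CPM in naive and 578 to 1252 CPM in treated Sox2Hi tumours. The 7 keratinocyte markers summed to 752 to 2598, 825 to 1723, 1248 to 1634 and 745 to 1244 CPM in the same order. Apoe made up most of the macrophage sum. Other macrophage markers were higher in control treated than control naive with no overlap: Csf1r (35.1 to 39.4 against 11.3 to 13.9 CPM), Adgre1 (44.2 to 62.4 against 25.9 to 38.6 CPM), C1qb (118 to 209.6 against 71.5 to 84.2 CPM) and C1qc (59.5 to 139.6 against 29.9 to 49.3 CPM). Mertk was lower with no overlap (2.88 to 3.44 against 3.45 to 3.96 CPM), and C1qa, Mrc1 and Apoe overlapped. The part of these cells in the Spp1 levels was not tested. Of the transcript words of Spp1, 14.3% also occur in the predicted gene Gm42793.

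Cstdc4, the stefin, read 91.4, 61.9 and 57 CPM in control naive, 1038 and 957 CPM in control treated, 122, 61.5 and 58.1 CPM in Sox2Hi naive, and 247 and 241 CPM in Sox2Hi treated. The naive grafts overlapped, both Sox2Hi treated libraries lay above them, and control treated lay above those. The treatment log2 fold change was 3.83 (SE 0.32; 3.28 with the expressed-gene scaling) in control tumours and 1.60 (SE 0.30; 1.85) in Sox2Hi tumours. The difference of the treated grafts was -2.03 (SE 0.35; -1.59), and -0.67 (SE 0.32) with the neutrophil marker scaling. Of its transcript words 21.6% occur in other genes, 9.72% in 2010005H15Rik, so its single value is uncertain.

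By group and with the all-gene scaling, treatment of control tumours put 6 of the 7 genes above control naive with no overlap, which 23.7% of all 29648 genes did. Spp1 overlapped there with library totals alone. In Sox2Hi treated tumours the same 6 were lower than in control treated with no overlap, against 27.3% of all genes. Both comparisons use the control treated libraries, so the second count is no support for the first, and the choice of the genes rests on them. In Sox2Hi tumours, Hilpda and Cstdc4 were higher after treatment with no overlap (22.0% of all genes) and Siglecf was lower with no overlap (21.8%). Of all genes 16.2% were called lower by the test of the treatment value in Sox2Hi less that in control, and 2.84% with the expressed-gene scaling, and the 7 genes were not tested for it. The treatment value in Sox2Hi less that in control was below 0 for all 7 with the all-gene scaling, from -4.25 (SE 0.61) for Car4 to -1.17 (SE 0.47) for Siglecf. With the expressed-gene scaling it ran from -3.46 (SE 0.62) for Car4 to -0.30 (SE 0.52) for Siglecf. With the neutrophil marker scaling Car4 (-2.70, SE 0.63) and Atp6v0d2 (-1.54, SE 0.66) had the lowest values, and Siglecf turned to 0.28 (SE 0.49).

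**Figure D3:**
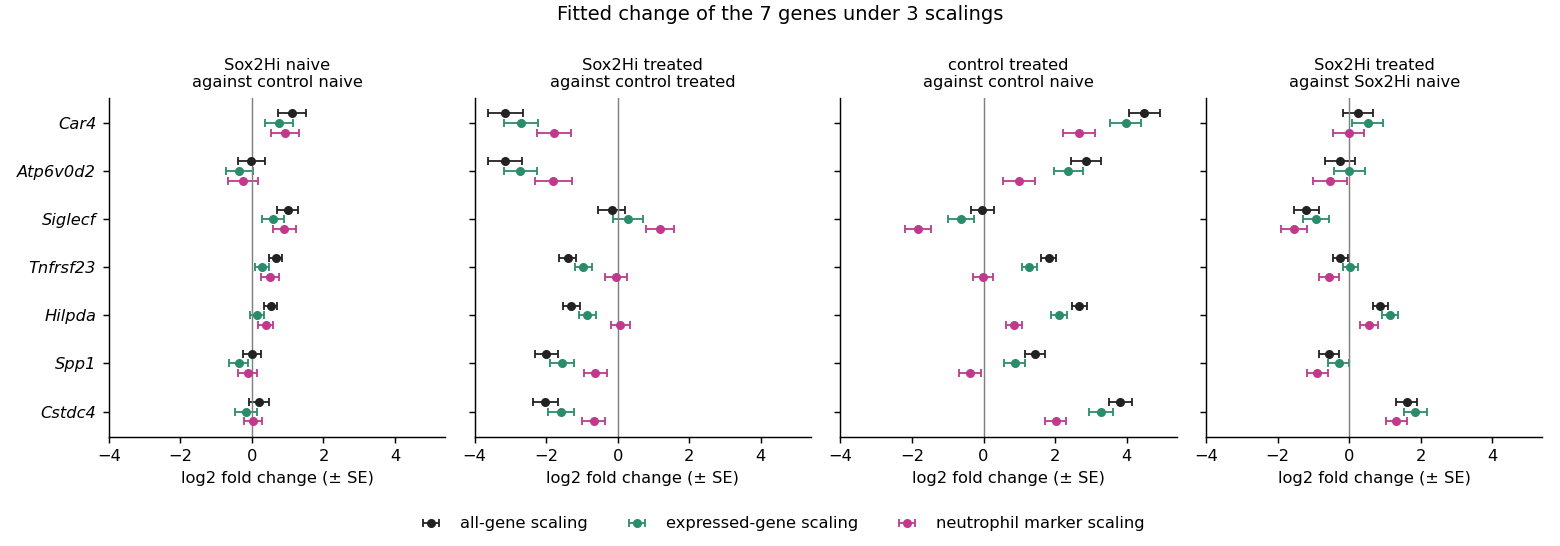
Fitted log2 fold change with its standard error for the 7 genes in 4 comparisons, under the all-gene, expressed-gene and neutrophil marker scalings. Between the treated grafts, Car4 and Atp6v0d2 lie below -1.7 under all 3 scalings, whereas Tnfrsf23 and Hilpda move from -1.40 and -1.30 to -0.05 and 0.07.

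Relative to the neutrophil markers, the genes differed in what remained of the control treated peak. Per 10000 CPM of the 8 markers, Car4 stood at 3.55 ± 1.81 CPM in naive and 22.7 ± 6.99 CPM in treated control tumours, and at 6.70 ± 1.78 CPM in naive and 6.61 ± 2.43 CPM in treated Sox2Hi tumours (SD, n = 3, 2, 3 and 2). Tnfrsf23 stood at 32.7 ± 6.66, 32.4 ± 7.08, 46.6 ± 9.17 and 31.4 ± 2.15 CPM in the same order, with treated and naive control tumours alike within their SD. Hilpda stood at 165 ± 15.1, 299 ± 68.1, 215 ± 12.3 and 314 ± 85.6 CPM, with the treated grafts within their SD. Siglecf stood lowest in control treated on this scale, at 1.98 ± 0.596 CPM, against 7.02 ± 2.05 in control naive.

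In naive tumours, where the 7 genes were tested, 0 of 7 passed (edgeR quasi-likelihood test, Benjamini-Hochberg adjustment over 29648 genes), against 1.87% of all genes, of which 8095 had an unadjusted p-value under 0.05. Car4 had the log2 fold change 1.11 in Sox2Hi against control (SE 0.39, edgeR adjusted p-value 0.11) and Siglecf 1.00 (SE 0.29, edgeR adjusted p-value 0.078). Tnfrsf23 had 0.66 (SE 0.19, edgeR adjusted p-value 0.072) and Hilpda 0.52 (SE 0.19, edgeR adjusted p-value 0.12). Of these 4, Siglecf, Tnfrsf23 and Hilpda were higher in all 3 Sox2Hi libraries than in any control library, as were 17.3% of all genes, and Car4 overlapped in 1 pair of libraries. All 7 overlapped with the expressed-gene scaling. Atp6v0d2 (-0.02, 95% interval -0.94 to 0.90), Spp1 (0.01, -0.61 to 0.63) and Cstdc4 (0.20, -0.47 to 0.88) showed no difference detectable in this design. With the expressed-gene scaling the 4 values were 0.76, 0.59, 0.29 and 0.14, with edgeR adjusted p-values from 0.26 to 0.72, and 0 of 7 passed against 14% of all genes. The neutrophil marker scaling also called 0 of 7, against 0.0101% of all genes.

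Naive libraries with the same title number deviated together, so the naive comparison was also fitted with the replicate number as a block on the naive libraries alone. The pairing was read from these same libraries and no label explains it. With this block 4 of 7 were called, all higher in Sox2Hi, against 8.31% of all genes called higher. They were Car4 (1.06, SE 0.21, edgeR adjusted p-value 0.018), Siglecf (0.96, SE 0.17, 0.015), Tnfrsf23 (0.57, SE 0.14, 0.03) and Hilpda (0.44, SE 0.13, 0.049). With the block and the expressed-gene scaling together, Car4 (0.83, edgeR adjusted p-value 0.019) and Siglecf (0.72, edgeR adjusted p-value 0.027) were called, 2 of 7 against 8.30% of all genes called higher, and Tnfrsf23 (0.33) and Hilpda (0.20) were not (edgeR adjusted p-values 0.11 and 0.31). DESeq2 without a block called the same 4 as the block alone, against 12.3% of all genes called higher. The summed eosinophil, macrophage and osteoclast markers were also higher in Sox2Hi naive, with no overlap between the naive grafts. Of the osteoclast markers Acp5 was higher with no overlap, while Ocstamp and Calcr were lower in Sox2Hi naive with no overlap. Their part in these values was not tested.

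The relatives of each gene were counted from lists, and the members themselves were left out of them. Some lists share genes, so their counts are not independent. Vegfa, Hk2 and Egln3 stand in the tumour neutrophil and hypoxia lists, and Ctsb and Cstb in the tumour neutrophil and stefin lists. Tumour neutrophil genes other than the 7 were higher with treatment of control tumours in 16 of 20 (18.7% of all genes were called higher) and lower in Sox2Hi than control treated tumours in 14 of 20 (9.57% of all genes), edgeR adjusted p-value under 0.05. Under expressed-gene scaling these counts were 15 and 4 of 20 (24.1% and 5.87% of all genes), with 3 genes lower on treatment (33.1% of all genes). The medians were 1.61 and -0.95 (all genes -0.30 and 0.13). Cd274, which encodes PD-L1, rose after treatment of the control graft from 199.6 ± 14.4 to 1772 ± 327 CPM (log2 3.15, SE 0.20, edgeR adjusted p-value 4e-06; means ± SD of list genes are over 3 naive or 2 treated libraries). The chemokine Ccl3 was lower in Sox2Hi treated tumours (-2.02, SE 0.37, edgeR adjusted p-value 0.0089), as was the activating receptor Trem1 (-1.32, SE 0.23, 0.0082). Vegfa, the endothelial growth factor, did not pass in either (0.02 and -0.18), and was called lower on treatment of control tumours with the expressed-gene scaling (-0.54, edgeR adjusted p-value 0.031). In Sox2Hi tumours 2 of 20 were called higher on treatment (1.79% of all genes), Cd274 (1.85) and Lair1 (0.97). By expressed-gene scaling 4 of 20 were called higher, adding Icam1 and Hk2, beside 15% of all genes.

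Genes of circulating neutrophils also went up in treated control tumours, in 12 of 12 (18.7% of all genes were called higher), with a median of 2.40, and 11 of 12 with the expressed-gene scaling (24.1%). Sox2Hi treated tumours had 6 of 12 lower than control treated (9.57% of all genes), and 2 of 12 with the expressed-gene scaling (5.87%). Among them were Retnlg (-1.78, SE 0.39, edgeR adjusted p-value 0.015) and the collagenase Mmp8 (-1.83, SE 0.41, 0.016). In Sox2Hi tumours 5 of 12 rose on treatment (1.79% of all genes), and 7 of 12 with the expressed-gene scaling (15%). Most genes of the lists written for the tumour and for the circulating state thus rose with treatment of control tumours, as did the summed neutrophil markers described above. Of those markers, Cxcr2, Retnlg and Mmp8 also stand in the circulating list. Vegfa, Cxcr4, Tgfb1 and Mmp14 of the tumour list were not called there with the all-gene scaling, and the lists were not compared by a test. Ly6g was lower in Sox2Hi treated than control treated tumours (-1.29, SE 0.35, edgeR adjusted p-value 0.033), and was not called with the expressed-gene scaling (-0.85, 0.13).

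Of 13 other carbonic anhydrases tested, 0 were called between the treated grafts, where 13.7% of all 29648 genes were called by edgeR and 9649 had an unadjusted p-value under 0.05. With treatment of control tumours 1 rose and 3 fell (18.7% and 15.3% of all genes were called higher and lower). Car2, the cytosolic enzyme, rose by 0.91 (SE 0.24, edgeR adjusted p-value 0.013, or 0.33 and 0.26 by expressed-gene scaling), and Car5b (-0.88), Car6 (-1.63) and Car10 (-1.0) fell. Car6 and Car10 averaged only 0.349 and 0.387 CPM per kb, and Car7, Car8, Car14 and Car15 were similarly low (0.292 to 0.517). Receptor genes taken as silent fell as well, from medians of 6.56 to 8.87 counts per kb in control naive to 2.51 to 2.78 in control treated. The part of background in the values of these carbonic anhydrases was not tested. In the treated grafts the 13 ran from -1.99 for Car3, which did not pass (adjusted p-value 0.32), to 0.88 for Car5b. With the expressed-gene scaling 5 were tested and Car5b was called higher in Sox2Hi (1.33, edgeR adjusted p-value 0.012; 15% of all genes were called higher). Hypoxia-inducible Car9 had a mean of 1.95 CPM or less in each group and did not pass in either comparison (0.71 and -0.75).

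Subunits of the V-ATPase were called higher with treatment of control tumours in 17 of 24 and lower in 1 (18.7% and 15.3% of all genes). By expressed-gene scaling this was 13 and 1 of 17 (24.1% and 33.1%). Between the treated grafts 14 of 24 were lower in Sox2Hi and 2 higher (9.57% and 4.18% of all genes), and 5 and 1 of 17 with the expressed-gene scaling (5.87% and 15%), with a median of -0.87. Atp6v0d1, the d subunit of most cells and the counterpart of Atp6v0d2, rose after treatment of the control graft from 119 ± 2.19 to 387 ± 36.7 CPM (1.70, SE 0.16, edgeR adjusted p-value 1.8e-05). It was lower in Sox2Hi treated tumours by -0.90 (SE 0.17, edgeR adjusted p-value 0.01), not called with the expressed-gene scaling (-0.46, 0.095). Atp6v1c1 (-1.28, SE 0.21), Atp6v0e (-1.15, SE 0.18) and Atp6v0b (-0.98, SE 0.17) had the smallest p-values, and Atp6v0b was not called with the expressed-gene scaling (-0.54, 0.051). Tcirg1, the a3 subunit of the osteoclast pump, was higher after treatment in the control graft (0.95, SE 0.23, edgeR adjusted p-value 0.0086) but did not pass under expressed-gene scaling (0.39, 0.16), and did not pass between the treated grafts (-0.39). Atp6v1e2, the gene lower with treatment, had no reads in either control treated library and a mean of at most 0.728 CPM elsewhere, so its fitted value is no bound. In Sox2Hi tumours 0 of 24 were called on treatment by edgeR, with 6450 of all genes at an unadjusted p-value under 0.05, against 1.79% of all genes called higher and 1.82% lower. Atp6v0b alone of 17 was called higher by expressed-gene scaling (0.51, adjusted p 0.041), beside 15% of all genes.

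Among Siglecs and the phosphatases that they recruit, Cd33, Siglece, Siglecg and Ptpn6 rose with treatment of control tumours, 4 of 10 (18.7% of all genes), and in 4 of the 5 tested with the expressed-gene scaling (24.1%). Siglecg (-1.71, SE 0.22, edgeR adjusted p-value 0.0051) and Cd33 (-1.18, SE 0.23, 0.01) were lower in Sox2Hi treated tumours, 2 of 10 (9.57% of all genes), and of the 2 Siglecg alone passed with the expressed-gene scaling (-1.26, 0.0083). Siglece, the main inhibitory Siglec of mouse neutrophils, had -0.77 there (SE 0.28, edgeR adjusted p-value 0.083). Against the same shares of all genes, 6 of 10 TRAIL pathway genes rose with treatment of control tumours and 4 of 10 were lower in Sox2Hi treated tumours (4 and 3 of 9 with the expressed-gene scaling, against 24.1% and 5.87%, which also called Tnfrsf10b lower on treatment at -0.58, edgeR adjusted p-value 0.013). Tnfrsf26, a receptor gene of the same family, was lower by -1.42 (SE 0.29, edgeR adjusted p-value 0.013), the caspase inhibitor Cflar by -1.24 (SE 0.20, 0.0071) and Casp8 by -1.04 (SE 0.20, 0.0098). Tnfrsf22, the other decoy receptor for TRAIL, which shares sequence with Tnfrsf23, did not pass (-0.51, SE 0.26, edgeR adjusted p-value 0.2), nor did the signalling receptor Tnfrsf10b (0.07) or the ligand Tnfsf10 (-0.41). Tnfsf10 rose with treatment of control tumours (0.87, SE 0.25, edgeR adjusted p-value 0.019).

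Lipid droplet genes other than Hilpda rose with treatment of control tumours in 7 of 15 and were lower in Sox2Hi treated tumours in 4 of 15, against 18.7% and 9.57% of all genes (6 and 2 of 8 with the expressed-gene scaling, against 24.1% and 5.87%). Plin2, the main droplet coat protein, rose in the control graft from 255 ± 15 to 1609 ± 215 CPM (2.65, SE 0.20, edgeR adjusted p-value 8e-06) and, in the Sox2Hi graft, from 382 ± 31.1 to 696 ± 218 CPM (0.87, SE 0.20, edgeR adjusted p-value 0.04). Its difference between the treated grafts was -1.21 (SE 0.22, edgeR adjusted p-value 0.0094). The lipase cofactor Abhd5 (-1.04, SE 0.19) and the lipase Lipe (-0.84, SE 0.18) were also lower, and Lipe was not called with the expressed-gene scaling (-0.39, 0.1). Pnpla2, the lipase that Hilpda inhibits, rose with treatment of control tumours (1.0, SE 0.25, edgeR adjusted p-value 0.011; by expressed-gene scaling 0.46 and 0.18) and did not pass between the treated grafts (-0.06). Hypoxia-inducible genes rose with treatment of control tumours in 10 of 13 and were lower in Sox2Hi treated tumours in 7 of 13, against the same shares. The expressed-gene scaling gave 9 and 1 of 12, the latter near its share of all genes (24.1% and 5.87%), with Vegfa lower on treatment. Ankrd37 (-1.51, SE 0.33, edgeR adjusted p-value 0.015), the oxygen sensor Egln3 (-1.33, SE 0.31, 0.02) and the glycolysis regulator Pfkfb3 (-1.08, SE 0.22, 0.012) were the named genes, of which Egln3 (-0.89, 0.066) and Pfkfb3 (-0.64, 0.067) were not called with the expressed-gene scaling.

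Of 10 osteopontin receptors, Cd44 alone was called between the treated grafts, a share near the 9.57% of all genes called lower (-1.10, SE 0.20, edgeR adjusted p-value 0.0092; by expressed-gene scaling -0.65 and 0.047). It rose from 1119 ± 86.0 to 2461 ± 241 CPM after treatment of the control graft (1.14, SE 0.18, edgeR adjusted p-value 0.00062). By expressed-gene scaling the integrin gene Itgb5 was also called, higher in Sox2Hi treated tumours (0.97, edgeR adjusted p-value 0.042). The integrin subunit Itgb1 was higher in Sox2Hi naive than control naive tumours (1.06) and fell on treatment there (-1.27, edgeR adjusted p-value 0.027; 1.82% of all genes were called lower). Stefins and the cathepsins that they inhibit were higher with treatment of control tumours in 10 of 11 and lower in Sox2Hi treated tumours in 11 of 11 (18.7% and 9.57% of all genes), with medians of 3.04 and -1.97 (8 and 5 of 9 with the expressed-gene scaling, against 24.1% and 5.87%). Stfa1 went from 9.25 ± 2.91 to 259 ± 10.2 CPM with treatment of the control graft. In the Sox2Hi graft it went from 7.73 ± 3.16 to 61.3 ± 3.77 CPM. Lower in Sox2Hi treated tumours were Stfa2 (-2.24, SE 0.34, edgeR adjusted p-value 0.0071), Stfa2l1 (-1.97, SE 0.31, 0.0071), Stfa1 (-2.08, SE 0.35, 0.0079) and Stfa3 (-3.18, SE 0.74, 0.02). These genes are near copies of each other, so their single values are uncertain, and Cstdc4 is a member of the same cluster.

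**Figure D4:**
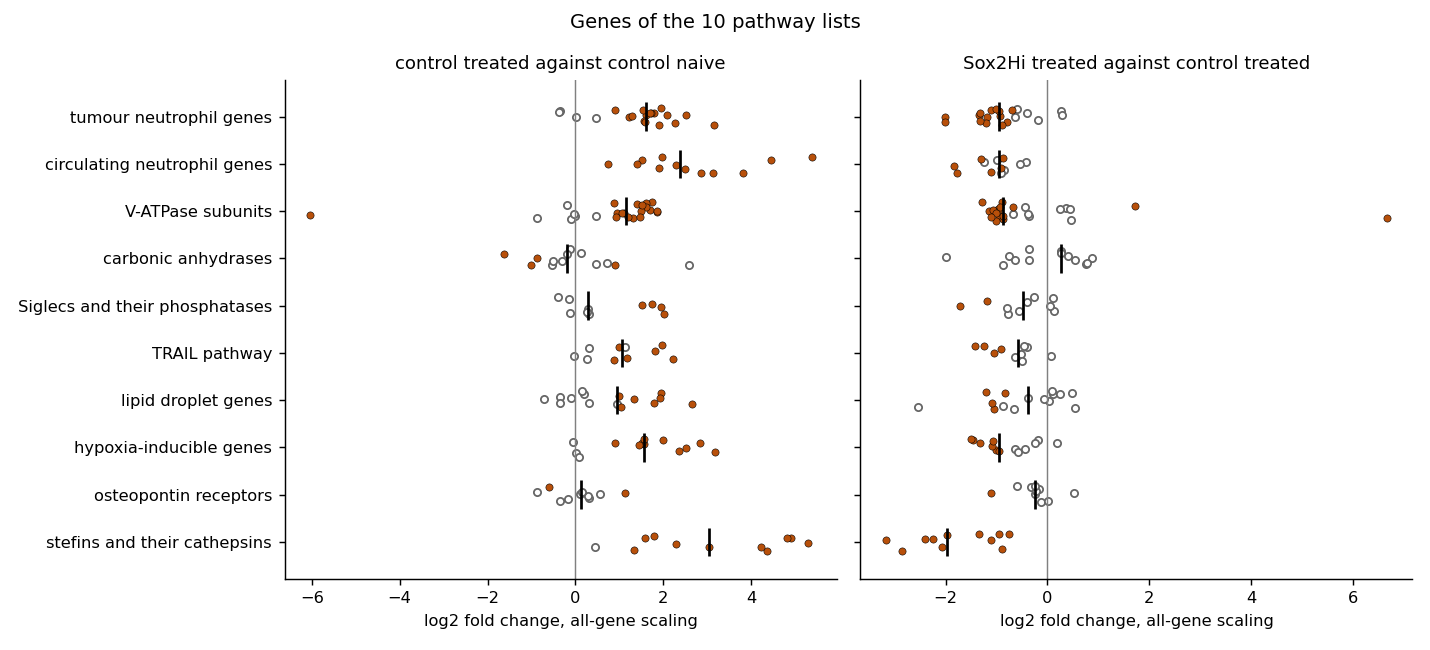
Log2 fold change (all-gene scaling) of each tested gene in the 10 lists, for treatment in control tumours and for Sox2Hi against control treated tumours, with filled points called by edgeR (adjusted p-value under 0.05), open points not called and a bar at the median. The stefins lie farthest from 0 (medians 3.04 and -1.97), the carbonic anhydrases scatter on both sides, and the points of Atp6v1e2 at -6.05 and 6.68 come from a gene with no reads in control treated.

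Over the 10 libraries the genes most like each member by Pearson r of log2(CPM + 1) were chosen from 7097 genes averaging 10 CPM or more, as a description with the all-gene scaling. Under expressed-gene scaling the first-ranked gene stayed first for Cstdc4 and Siglecf, and Abtb2 ranked 69 for Hilpda. Cstdc4 was closest to the calprotectin gene S100a9 (r = 0.998), then Mcemp1, Ifitm1, Msra and S100a8. Hilpda was closest to Abtb2 (r = 0.997) and to the ferritin gene Fth1 (r = 0.993). Car4 was closest to Larp4b (r = 0.987) and Tnfrsf23 to Tmem164 (r = 0.989), and both had Wsb1 among their nearest 5. Atp6v0d2 was closest to the chemokine gene Ccl4 (r = 0.952), Spp1 to Rnf11 (r = 0.951) and Siglecf to Adamdec1 (r = 0.901). The libraries fall into groups with control treated apart, so these values largely restate the order of the groups. Among the members, Car4 followed Tnfrsf23 (r = 0.966) and Atp6v0d2 (r = 0.913), and Siglecf had r below 0 with all 6 others over the 10 libraries. In the 6 naive libraries alone Car4 still followed Tnfrsf23 (r = 0.891) and less so Atp6v0d2 (r = 0.545). Siglecf had r above 0 there with Hilpda (0.755), Tnfrsf23 (0.509) and Car4 (0.313), and below 0 with Atp6v0d2 (-0.497), Spp1 (-0.295) and Cstdc4 (-0.134).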

How the data were processed

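Bulk RNA was sequenced in 10 libraries, grouped by graft and treatment in the labels. RNA was extracted with a Zymo microprep kit and libraries made with a NEBNext kit for single cells and low input, per the labels' protocols. The authors deposited 1 table of estimated counts per gene. The submitters' processing notes name kallisto 0.44.0 and mm10, and the annotation is not given in the sources used here. The deposited values are whole numbers, and the 4 largest all end in 0, so they are taken as rounded expected counts. Of 55481 rows, 55385 are mouse genes, 55144 of them in GENCODE M21, and 96 other sequences (0.000992% to 0.00277% of counts) were left out. kallisto shares reads that fit several transcripts, so shared 31-base words are given where they are many.

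All libraries entered 1 model in edgeR 4.0.16 (R 4.3.3) with filterByExpr and TMM, and the quasi-likelihood test with Benjamini-Hochberg adjustment. Standard errors come from the fold change and its F statistic, and the common biological coefficient of variation was 0.232. Alternatives included DESeq2 1.42.0, limma-voom (limma 3.58.1), other scalings, background subtraction, replicate blocks and leaving out each library. The neutrophil marker scaling and the block with the expressed-gene scaling were added after the data were seen. In simulated data over 29648 genes, 100 genes were changed 2-fold and 100 were changed 4-fold. Of these, 15% and 80% were recovered for the naive grafts, and 7% and 74% for the treated grafts. Recovery after the adjustment depends on how many genes change. In the measured data 13.7% of all genes were called between the treated grafts, so the simulation does not give the sensitivity there. Replicates were checked for repeats, and no pair agreed within sampling noise (chi-square over its degrees of freedom at least 12.5). Deviations from group means of same-numbered naive libraries correlated at 0.271, 0.335 and 0.480, which was taken as pairing by title number. Only this check supports it, because no label explains the numbers. The treated pairs gave -0.093.

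The 7 genes and the lists were chosen with earlier results of these data known. Named are all 7 genes, at most 3 genes per list with the smallest p-value between the treated grafts among those called, 17 listed genes, most of which share a complex, cluster or ligand with a member, and, from the 5 most alike genes per member, at least the closest. Of the genes so chosen, 1 is not reported here. Other genes named were chosen after their values were seen. Aldoa matched 2 identifiers and was left out, and Cstdc5 and Cstdc6 were not matched. Intervals and depth cover counting and replicate spread only.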

Additional observations from a re-analysis of the deposited data

Results flagged for a closer look

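Of 34 named genes from the lists, 27 had a treatment effect that differed between the Sox2Hi and the control graft by the interaction test (edgeR, adjusted p-values from 0.0046 to 0.036), and all 27 had the lower response in Sox2Hi, as did 16.2% of all genes. Many of the 34 were named for their small p-value between the treated grafts, a difference that is part of the one tested, so the count is a description and is not set against that share. Values are the log2 fold change of treatment in Sox2Hi less that in control. Among tumour neutrophil genes they were -1.47 for Trem1, -2.27 for Ccl3 and -1.30 for Cd274, and among circulating neutrophil genes -2.10 for Retnlg and -1.95 for Mmp8, with -1.66 for the neutrophil marker Ly6g. V-ATPase subunits gave -1.71 for Atp6v1c1, -1.50 for Atp6v0b, -1.49 for Atp6v0d1, -1.43 for Atp6v0e and -1.04 for Tcirg1. Siglecs gave -2.12 for Siglecg, -1.42 for Cd33 and -1.33 for Siglece, and the TRAIL pathway -2.08 for Tnfrsf26, -1.89 for Cflar and -1.44 for Casp8. Lipid droplet genes gave -1.79 for Plin2, -1.31 for Abhd5 and -0.93 for Lipe, and hypoxia-inducible genes -2.21 for Ankrd37, -2.11 for Egln3 and -1.33 for Pfkfb3. Cd44 gave -1.47, and the stefins gave -2.27 for Stfa2, -2.05 for Stfa2l1 and -1.83 for Stfa1. With the expressed-gene scaling 6 of the 27 passed, where 2.84% of all genes did in this direction: Atp6v1c1, Siglecg, Cflar, Tnfrsf26, Ankrd37 and Egln3. The 27 share the control treated libraries, so they are not independent of each other.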

How the results depend on the processing

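In the naive grafts 0 of 7 genes were called in the reported fit and without any single library, 4 with DESeq2 and with the replicate block on the naive libraries alone, 2 with limma-voom, with the replicate block by title number and with the naive block under expressed-gene scaling, and 1 with no filter on low counts. The log2 values called with DESeq2 were 1.17 for Car4, 1.07 for Siglecf, 0.73 for Tnfrsf23 and 0.59 for Hilpda. The naive block gave 1.06, 0.96, 0.57 and 0.44 for the same genes, and with expressed-gene scaling 0.83 for Car4 and 0.72 for Siglecf. Siglecf had 1.29 with limma-voom, 1.12 with no filter and 1.03 with the title block, and Tnfrsf23 0.53 with limma-voom and 0.65 with the title block.

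With the neutrophil marker scaling, sign changes were seen for Siglecf in the treatment difference between grafts (0.28), Tnfrsf23 (-0.01) and Spp1 (-0.38) for treatment in control tumours, Hilpda between the treated grafts (0.07), and 3 values that lay within 1 SE of 0 in the reported fit: Siglecf between the treated grafts (1.19), Car4 for treatment in Sox2Hi tumours (-0.02) and Spp1 between the naive grafts (-0.12). Tnfrsf23 for treatment in Sox2Hi tumours changed sign with expressed-gene scaling (0.02), factors from expressed genes (0.02) and background subtracted (0.01). Between the treated grafts, Car4 ran from -3.36 to -1.78 and Atp6v0d2 from -3.53 to -1.80 over settings that kept all libraries. The cause of these changes was not tested.

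Of all genes, 554 were called between the naive grafts. The count was 1576 with expressed-gene scaling, 3915 with factors from expressed genes, 1289 with RLE factors, 23 with library totals, 4058 with DESeq2, 5570 with limma-voom and 24 with the groups compared alone. The replicate block gave 2282 by title number, 301 by description number, 3841 with naive libraries alone and 2478 with expressed-gene scaling added, the neutrophil marker scaling gave 3, and leaving out 1 library gave 3 to 2166 (2166 without control naive replicate 3). Between the treated grafts 4076 were called, against 2353 with expressed-gene scaling, 10991 with library totals, 2 with the groups alone, 739 with background subtracted, 20563 with the neutrophil marker scaling and 66 to 5211 without 1 library (66 without Sox2Hi treated replicate 1). For treatment in control tumours 10078 were called, against 6456, 16194 with factors from expressed genes, 21640, 6629 and 25818 in that order of settings (expressed-gene scaling, factors, totals, background, markers), and 6004 to 9848 without 1 library (6004 without control treated replicate 2). For treatment in Sox2Hi tumours 1070 were called, against 2433 with expressed-gene scaling, 1876 with factors from expressed genes, 1789 with library totals, 3215 with DESeq2, 2676 with limma-voom, 2756 with the groups alone, 117 with the neutrophil marker scaling and 82 to 2492 without 1 library. Groups of 2 libraries limit every comparison with treatment.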
